A study of Arabidopsis thaliana with 6 samples.

Results

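The genes described here had their lowest signal in dark-grown Arabidopsis seedlings given hydrogen peroxide. They are 62 of the 13356 genes named by a single-gene probe set on the array (0.464%). A gene was taken when its mean with H2O2 was at least 0.8 lower on the log2 scale, which is 1.74-fold, than its mean in dark and also than its mean in light, and when both H2O2 arrays lay below the other 4 arrays. The genes were thus chosen by their signals on these 6 arrays, so their differences between H2O2 and either other group are descriptions and carry no test.

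The study compared whole Col-0 seedlings on 6 Affymetrix ATH1 arrays, with darkness used to lower the seedlings' own H2O2. One group was grown in the dark with 5 mM H2O2, another in the light (16 h of light and 8 h of darkness a day), and the control group in the dark alone, with 2 biological replicates in each. All 3 groups share the Col-0 ecotype, the half-strength MS medium and harvest at 7 days. The group means therefore rest on 2 arrays each, and whole seedlings mix root and shoot, so that fewer cells of a type and less RNA per cell cannot be told apart.

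Hydrogen peroxide is a reactive oxygen species that plant cells both make and remove. In the cell wall it is a substrate of the class III peroxidases, secreted haem enzymes that can cross-link wall polymers, among them the extensins, a family of hydroxyproline-rich glycoproteins. Growing root hairs, the tubular outgrowths of root epidermal cells, depend on wall loosening by expansins, on extensins and on locally produced reactive oxygen species. Iron, which reacts with H2O2 to give hydroxyl radicals, is taken up by roots under the control of bHLH transcription factors.

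Expansins, extensins, peroxidases and genes of the iron deficiency response were among the 62 genes. Signals of the 62 genes had group medians of 5.25 with H2O2, 7.08 in light and 6.47 in dark on the log2 scale. H2O2 minus dark had a median of -1.14 and ran from -2.54 to -0.80, against a median of -0.027 over all named genes. H2O2 minus light had a median of -1.55 and ran from -7.66 to -0.84, against 0.053 over all named genes. In 39 genes the signal was at least 1 lower than in dark, in 52 at least 1 lower than in light, and in 32 both held. Over all 22746 tested probe sets limma called 8.18% lower in H2O2 against dark and 17.4% lower in H2O2 against light, and the rule itself set the direction of the 62. Called higher were 12.3% and 22.0%.

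**Figure D1:**
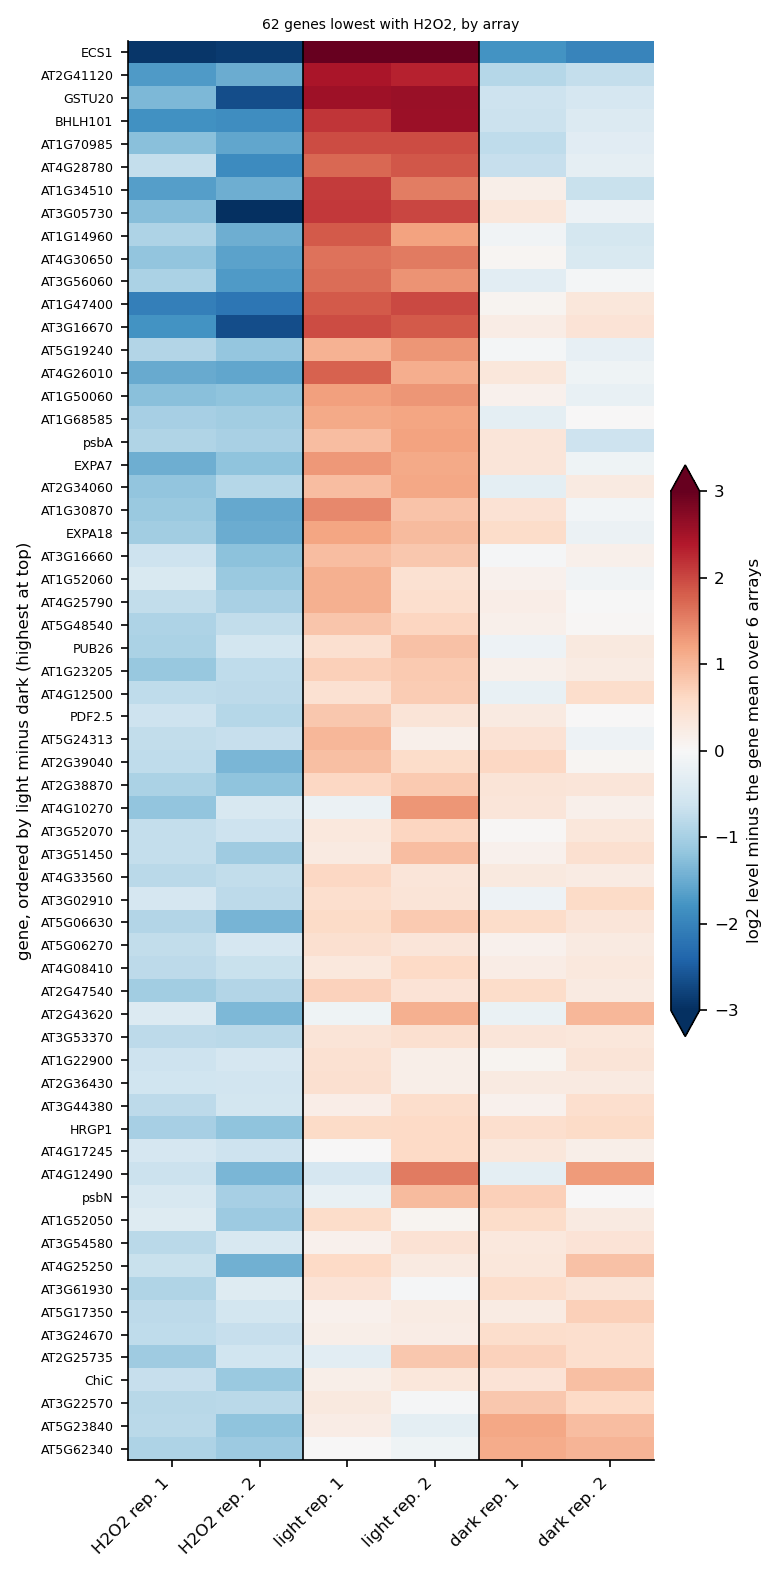
Signal of each of the 62 genes on each array (columns: 2 H2O2, 2 light, 2 dark arrays), as log2 difference from the gene's mean over 6 arrays, with the colours ending at -3 and 3. The H2O2 columns are the lowest in each row, which is how the genes were chosen, while the light and dark columns differ from gene to gene.

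**Figure D2:**
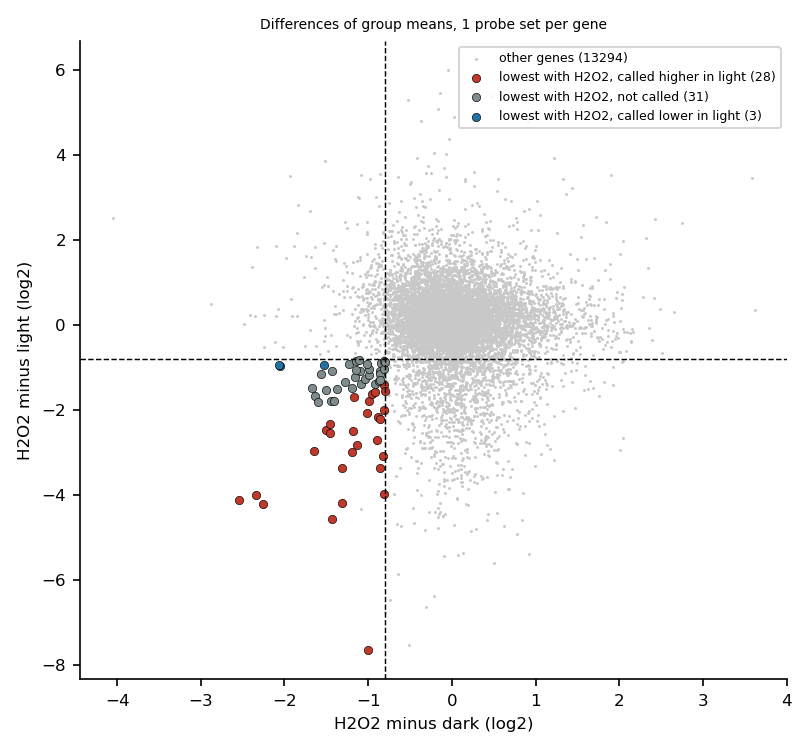
H2O2 minus dark against H2O2 minus light (log2) for all named genes, with the 62 genes marked and the thresholds of -0.8 drawn. H2O2 minus dark spans -2.54 to -0.80 in the 62 genes and H2O2 minus light spans -7.66 to -0.84.

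Genes are called measured here when a probe set names them alone, so others may be on the array without a name here. Of 44 genes on a list of root hair genes, 6 were measured and 5 of these are among the 62. EXPA7, a root hair expansin, had signals of 3.83 and 4.09 with H2O2, 6.60 and 6.43 in light, and 5.67 and 5.17 in dark. EXPA18, the other root hair expansin, had 4.44 and 4.01 with H2O2, 6.68 and 6.45 in light, and 6.05 and 5.32 in dark. For both expansins the 3 groups did not overlap, and the order was light, then dark, then H2O2. H2O2 minus light was -2.55 for EXPA7 and -2.34 for EXPA18, and H2O2 minus dark was -1.46 for both. Their H2O2 signals lay in the dim range of the array, here the lowest 40% of probe set means (under 5.16).

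The root hair list also holds AT4G26010 and AT1G30870, which stand on the class III peroxidase list as well. AT4G26010 had 5.95 and 5.89 with H2O2, 9.23 and 8.55 in light, and 7.80 and 7.33 in dark, and was 7.82-fold lower with H2O2 than in light and 3.13-fold lower than in dark. AT1G30870 had 6.18 and 5.75 with H2O2, 8.74 and 8.16 in light, and 7.72 and 7.21 in dark. The order of the groups was again light, dark, H2O2, with no overlap. The mean of the 6 measured root hair genes was 5.76 and 5.52 on the H2O2 arrays, 7.81 and 7.57 on the light arrays, and 7.17 and 6.78 on the dark arrays. SCN1, the remaining measured root hair gene, was not called in either comparison. It had 9.28 and 9.00 with H2O2, 9.25 and 9.29 in light, and 9.44 and 9.50 in dark, a difference of -0.33 ± 0.14 from dark (SE, adjusted p = 0.1357 by limma).

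Extensins and related proline-rich wall proteins gave 4 of the 62 genes, from 13 measured of 28 on the list. HRGP1, an extensin-type glycoprotein, had 5.71 and 5.49 with H2O2, 7.28 and 7.30 in light, and 7.21 and 7.27 in dark. The light and dark arrays lay close together, and both H2O2 arrays lay well below them, at 3.22-fold under light and 3.11-fold under dark. AT5G06630, also on the root hair list, had 4.89 and 4.38 with H2O2, 6.36 and 6.56 in light, and 6.33 and 6.13 in dark. AT4G08410 had 4.54 and 4.67 with H2O2, 5.65 and 5.91 in light, and 5.55 and 5.64 in dark. AT3G54580 had 3.42 and 3.76 with H2O2, 4.37 and 4.66 in light, and 4.56 and 4.66 in dark, and was dim in all groups. All 4 shared this pattern, with H2O2 low and light and dark within 0.23 of each other in their means. Probe sets of HRGP1, AT5G06630 and AT4G08410 hold probes that can match similar genes, so signal may be shared between extensins.

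Of the 9 measured extensin genes outside the 62, limma called 4 lower with H2O2 than in dark and none higher, and against light 2 lower and 2 higher. AT1G26240 had 3.70 and 4.02 with H2O2, 3.44 and 3.31 in light, and 6.37 and 7.10 in dark, and was lower than dark by 2.88 ± 0.23 (SE, adjusted p = 0.0002205 by limma). Its H2O2 and light arrays were both far below dark. AT1G26250 with H2O2 fell by 1.93 ± 0.23 against dark (SE, adjusted p = 0.0009035 by limma) but was 3.50 higher than light. AT1G23720 with H2O2 fell by 1.76 ± 0.16 against dark (adjusted p = 0.0003335 by limma). Its probe set, too, holds probes that can match similar genes, so its signal may be shared with other extensins. With arrays set by the hybridisation controls AT1G26250 and AT1G23720 were not called against dark (adjusted p = 0.1046 and 0.1666). In the 4 extensin genes of the 62, light and dark means were close, whereas limma called 5 of these 9 lower in light than in dark. The rule separated the 4 from the 9 on these same arrays, so nothing particular to the 4 is read from this contrast. Over the 12 lists made by locus, 26 of the 92 measured genes outside the 62 were called lower and 6 higher with H2O2 than in dark. These calls moved with single arrays: without H2O2 replicate 2 they were 14 lower and 3 higher, and without dark replicate 2 they were 16 lower and 1 higher. Without H2O2 replicate 1 they were 20 lower and 1 higher. With arrays set by the hybridisation controls, 2 were called lower.

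Class III peroxidases gave 5 of the 62 genes, from 54 measured of 72 on the list. Beside AT4G26010 and AT1G30870 these were AT2G39040, AT1G34510 and AT2G34060. AT1G34510 had 3.95 and 4.15 with H2O2, 7.70 and 7.14 in light, and 5.78 and 4.95 in dark, in the same order as the root hair peroxidases. AT2G39040 had 4.57 and 3.97 with H2O2, 6.24 and 5.89 in light, and 5.97 and 5.39 in dark. In AT2G39040 the light and dark arrays overlapped, and H2O2 minus dark was -1.41, with H2O2 under the dim bound. Over all 54 measured peroxidases the median of H2O2 minus dark was -0.29 and that of H2O2 minus light 0.049, so the 5 do not describe the class.

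Of the 49 measured peroxidases outside the 62, limma called 11 lower and 3 higher in H2O2 against dark. Against light, 6 were lower and 21 higher with H2O2. AT5G19890 with H2O2 fell by 1.49 ± 0.31 against dark (adjusted p = 0.009912 by limma) and was 1.12 higher than light. Its call against dark was lost without dark replicate 1 (0.06105) or H2O2 replicate 2 (0.06547), and that against light without H2O2 replicate 1 (difference 0.64, 0.1241) or light replicate 1 (0.07295). AT3G03670 with H2O2 fell by 1.38 ± 0.26 against dark (adjusted p = 0.007276 by limma, and 0.06978 without H2O2 replicate 1). AT5G39580 with H2O2 fell by 1.26 ± 0.38 against dark (adjusted p = 0.04485 by limma) and was 2.27 higher than light. The call of AT5G39580 against dark was lost without any one of the dark or H2O2 arrays (adjusted p = 0.1245 to 0.2043). With arrays set by the hybridisation controls none of these 3 was called against dark (adjusted p = 0.2567 to 0.4021). In all 3 light, not H2O2, had the lowest mean, although for AT3G03670 H2O2 minus light was 0.24 and not called (adjusted p = 0.5359).

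**Figure D3:**
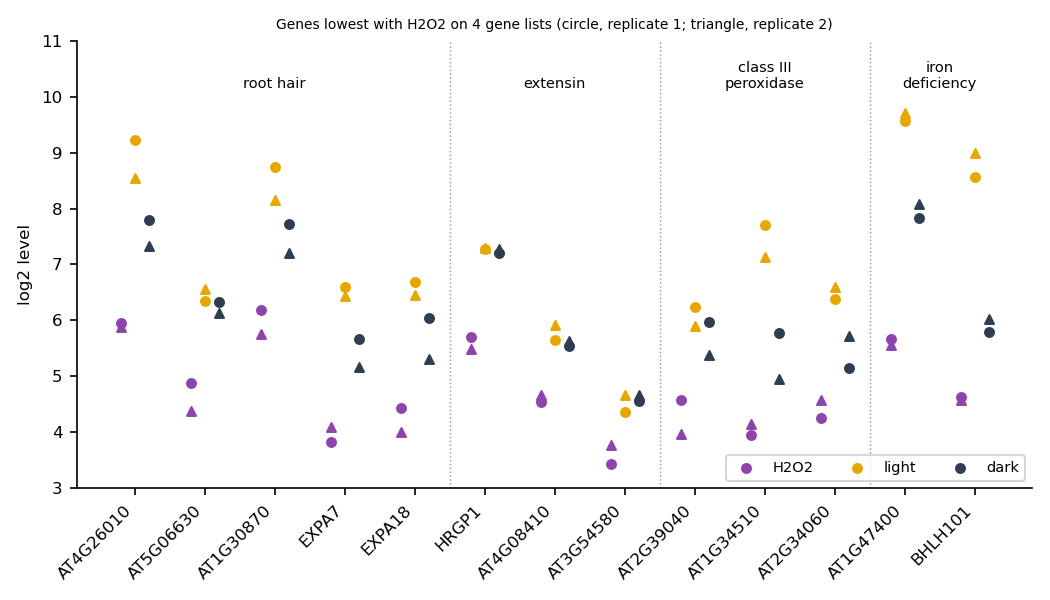
Signal (log2) of genes of the 62 that stand on the root hair, extensin, peroxidase and iron deficiency lists, on each array, with H2O2 left of light and dark. Each gene is drawn once, so the peroxidases and the extensin AT5G06630 of the root hair list stand under root hair, and both H2O2 points of every gene lie below its other 4 points.

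The iron deficiency list had 7 measured genes of 30, and AT1G47400 and BHLH101 are among the 62. AT1G47400 had 5.67 and 5.56 with H2O2, 9.56 and 9.70 in light, and 7.82 and 8.08 in dark, a difference of -4.02 from light (16.2-fold) and of -2.34 from dark (5.05-fold). BHLH101, a transcription factor of the iron deficiency response, had 4.62 and 4.58 with H2O2, 8.57 and 9.00 in light, and 5.79 and 6.03 in dark, a difference of -4.19 from light and of -1.32 from dark, with the H2O2 signal under the dim bound. In both genes the 3 groups were far apart and in the order light, dark, H2O2. Of the 5 measured genes outside the 62, limma called 3 lower and 1 higher in H2O2 against dark. AT3G13610 with H2O2 fell by 1.64 ± 0.22 against dark (adjusted p = 0.001578 by limma) and was 1.82 higher than light. AT1G74770 with H2O2 fell by 1.13 ± 0.18 against dark (adjusted p = 0.003521 by limma) and its H2O2 minus light was -0.087 (adjusted p = 0.7689). BGLU42, a beta-glucosidase, was 1.24 ± 0.15 higher with H2O2 than dark (adjusted p = 0.0008671 by limma). With arrays set by the hybridisation controls AT3G13610 and AT1G74770 were not called against dark (adjusted p = 0.2101 and 0.5282).

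Other lists gave none of the 62 genes. In H2O2 against dark, 5 of 6 measured secreted signalling peptide genes and 2 of 8 early defence and wound genes were called lower by limma. Over all tested probe sets the share was 8.18%. With arrays set by the hybridisation controls neither of the 2 defence genes was called. AT1G57630 then had -0.65 (adjusted p = 0.2864 by limma), and AT1G05340 turned to 0.22. The call of AT1G05340 was also lost without any one dark or H2O2 array. Of the peptide genes, H2O2 minus dark was -2.33 ± 0.21 for AT2G23270, -1.89 ± 0.20 for AT4G28460 and -1.40 ± 0.17 for AT3G10930 (SE), and the calls of AT4G28460 and AT3G10930 were lost with arrays set by the hybridisation controls (adjusted p = 0.1191 and 0.2981). Of these, AT2G23270 and AT4G28460 were called higher with H2O2 than in light. Among 5 measured xyloglucan endotransglucosylase genes, XTH33 alone was called lower (H2O2 minus dark -0.69 ± 0.14), a direction that turned (0.084) with arrays set by the hybridisation controls, and it was 1.93 higher than light. Without dark replicate 2 or either H2O2 array XTH33 was not called against dark (adjusted p = 0.05048 to 0.07629). The 9 measured photosynthesis genes used as markers of green shoot cells averaged 10.37 and 10.23 with H2O2, 12.60 and 12.58 in light, and 10.04 and 10.07 in dark. Their lowest single value was above the dim bound. Of these, 2 were called higher with H2O2 than in dark (PRK by 0.67 ± 0.14 and PSAN by 0.57 ± 0.14) and 9 were lower with H2O2 than in light. PSAN lost its call without any one dark or H2O2 array (adjusted p = 0.05411 to 0.1277), and PRK without dark replicate 2 or either H2O2 array (0.06898 to 0.08389). The part of these markers in the results on the 62 genes was not tested. No gene of the root endodermis, root tip, mineral uptake or aquaporin lists was named alone by a probe set in the annotation used. Such genes may still be on the array, among the 8730 probe sets unnamed here or those that name several genes. Of the lists used as markers of root cells, only that of root hairs therefore had named genes here. Of the lists made by words in the gene names, 4 defensin-like and 19 glycosyl hydrolase and pectin enzyme genes were measured, and in each 1 gene was called higher and none lower in H2O2 against dark. The words were matched in gene symbols and synonyms only, which missed the defensin PDF2.5 and the chitinase ChiC, both among the 62. These counts therefore do not cover all defensin or glycosyl hydrolase genes.

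ECS1 had the largest difference between H2O2 and light. It had 4.43 and 4.47 with H2O2, 12.13 and 12.09 in light, and 5.53 and 5.37 in dark, a difference of -7.66 from light and of -1.001 from dark. Its H2O2 signal lay under the dim bound, so no fold is given. GSTU20, a tau-class glutathione S-transferase, an enzyme family that conjugates glutathione to electrophiles, had 7.55 and 6.24 with H2O2, 11.44 and 11.48 in light, and 8.26 and 8.39 in dark. Its H2O2 arrays were more than 1 apart, and light was far above both other groups, with H2O2 23.7-fold below light and 2.69-fold below dark. ChiC, a class V chitinase, had 6.49 and 6.08 with H2O2, 7.37 and 7.52 in light, and 7.61 and 8.10 in dark. PDF2.5, a plant defensin, had 6.37 and 6.14 with H2O2, 7.79 and 7.36 in light, and 7.25 and 7.00 in dark, and PUB26, a U-box protein of the ubiquitin ligase type, had 5.50 and 5.90, 6.93 and 7.33, and 6.29 and 6.73 in the same groups. ChiC was highest in dark, and in PDF2.5 and PUB26 light lay above dark on all arrays.

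Plastid-encoded genes gave 2 of the 62, from 69 measured, where 0.464% of all named genes met the rule. psbA, which encodes the D1 protein of photosystem II, had 7.81 and 7.74 with H2O2, 9.64 and 9.91 in light, and 9.08 and 8.10 in dark. psbN, whose product is needed to assemble the same photosystem, had 6.45 and 5.93 with H2O2, 6.70 and 7.87 in light, and 7.64 and 6.93 in dark. The light and dark arrays of psbN overlapped and its light arrays were 1.17 apart, while the gap between its higher H2O2 array and the lowest other array was 0.25. The dark arrays of psbA were 0.99 apart. Leaving out 1 array at a time, psbA and psbN each met the rule 4 of 6 times. Neither met it with arrays set by the hybridisation controls.

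Among the genes known here by locus alone, AT3G16670 had the most negative difference from dark, -2.54 (5.81-fold). It had 5.95 and 5.09 with H2O2, 9.69 and 9.58 in light, and 7.96 and 8.15 in dark. AT3G05730 had 8.05 and 6.27 with H2O2, 11.45 and 11.33 in light, and 9.66 and 9.17 in dark. In both loci light was highest and H2O2 lowest without overlap, and the 2 H2O2 arrays of AT3G05730 were 1.78 apart. AT2G38870 was the brightest of the 62 genes with H2O2, at 8.98 and 8.74, against 10.57 and 10.72 in light and 10.32 and 10.30 in dark. AT4G25250 had 4.71 and 3.94 with H2O2, 5.98 and 5.64 in light, and 5.73 and 6.27 in dark. Its light and dark arrays overlapped, and its H2O2 arrays lay below both.

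Replicates of some genes differed as much as the groups did. AT4G12490 had 5.60 and 4.88 with H2O2, 5.74 and 7.80 in light, and 5.97 and 7.52 in dark. AT2G43620 had 5.62 and 4.68 with H2O2, 5.91 and 7.10 in light, and 5.83 and 7.02 in dark. In both loci the second light and dark arrays were above the first, the second H2O2 array was below the first, and the first arrays of the 3 groups lay within 0.37 (AT4G12490) and 0.29 (AT2G43620) of one another. Over the 62 genes the median SD of the replicates was 0.192 with H2O2, 0.198 in light and 0.193 in dark, against 0.103, 0.112 and 0.107 over all named genes. The gap between the higher H2O2 array and the lowest of the other 4 had a median of 0.707, and it was under 0.2 in AT4G12490 (5.60 against 5.74) and AT4G28780 (4.21 against 4.24).

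Light against dark is a comparison whose direction the rule did not set, although it required both groups to lie above H2O2. By limma, 28 of the 62 genes (45.2%) were called higher in light and 3 (4.84%) lower. Over all tested probe sets 23.0% were called higher and 25.0% lower, but the rule chose the 62 on these same light and dark arrays, so nothing particular to the 62 is read from the difference in shares. The other 31 were not called, with differences of -0.41 to 0.46. Some of them moved with single arrays: light minus dark was 1.06 for AT4G10270 without light replicate 1. For AT2G25735 it was -0.91 without light replicate 2. AT3G51450, ChiC, AT4G12500, PDF2.5, AT3G02910, AT5G17350 and AT5G24313 also gained a call without 1 array. So did AT3G24670 after quantile normalization and PDF2.5 with the replicate block. Light minus dark had a median of 0.41 over the 62 genes, against -0.064 over all named genes, and 50 of 62 were above 0. The rule limited these values too, so nothing particular to the 62 is read from them. Light was 6.66 ± 0.13 above dark for ECS1 (SE, adjusted p = 2.95e-08 by limma), 3.13 ± 0.34 for GSTU20 (5.67e-05) and 2.87 ± 0.17 for BHLH101 (1.594e-06). The 28 genes differed in size of the light effect from 0.55 to 6.66.

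Also high in light were AT2G41120, with 4.20 and 4.43 with H2O2, 8.36 and 8.22 in light, and 5.06 and 5.18 in dark, and AT1G70985, with 4.86 and 4.55, 8.08 and 8.08, and 5.35 and 5.78 in the same groups. Light minus dark was 3.17 ± 0.14 in AT2G41120 (adjusted p = 3.973e-07 by limma) and 2.51 ± 0.18 in AT1G70985 (4.35e-06). In both loci the light arrays stood above the rest by more than 2. The other genes called higher in light were AT3G16670, AT1G47400, AT3G05730, AT4G26010, AT1G30870, EXPA7, EXPA18, AT1G34510, AT4G30650, AT1G50060, AT1G23205, AT3G56060, AT2G34060, AT3G16660, AT4G25790, AT5G48540, AT1G14960, AT1G68585, AT5G19240, AT4G28780, psbA, PUB26 and AT1G52060. For EXPA7 light was 1.09 ± 0.19 above dark (adjusted p = 0.001018) and for EXPA18 0.88 ± 0.24 (0.01409, and 0.09952 without dark replicate 2 or 0.07484 without light replicate 1). AT1G30870, AT1G23205, AT3G16660, AT4G25790, PUB26 and AT1G52060 also lost the call without 1 or more single arrays. For the peroxidase AT1G30870 the adjusted p was 0.008456, 0.06864 without dark replicate 2 and 0.06092 without light replicate 1.

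The 3 genes called lower in light were AT5G62340, AT5G23840 and AT3G22570. AT5G62340 had 6.87 and 6.71 with H2O2, 7.81 and 7.66 in light, and 8.90 and 8.80 in dark, with light 1.12 ± 0.14 below dark (light minus dark -1.12, adjusted p = 0.0001288 by limma). AT5G23840 had 6.07 and 5.66 with H2O2, 7.11 and 6.58 in light, and 8.03 and 7.81 in dark (light minus dark -1.08, adjusted p = 0.002126). AT3G22570 had 6.57 and 6.60 with H2O2, 7.70 and 7.38 in light, and 8.22 and 8.01 in dark (light minus dark -0.58, adjusted p = 0.01185). It lost its call when dark replicate 1 (adjusted p = 0.07935) or light replicate 2 (0.07952) was left out, and turned to 0.11 with arrays set by the hybridisation controls. On that scale AT5G62340 (-0.43) and AT5G23840 (-0.39) were not called. All 3 had the order dark, light, H2O2 without overlap, the reverse of the light-high genes in their first 2 places. The 31 genes not called were all 4 extensins, AT2G39040, AT2G38870, ChiC, PDF2.5 and psbN, AT4G12490, AT4G25250, AT2G43620 and AT2G47540, AT3G51450, AT3G53370, AT4G10270, AT2G25735, AT1G52050, AT4G33560, AT3G44380, AT3G24670, AT4G12500, AT3G02910, AT3G52070, AT5G17350, AT5G24313, AT2G36430, AT3G61930, AT5G06270, AT4G17245 and AT1G22900.

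The remaining genes called higher in light differed in how far dark stood above H2O2. AT4G30650 had 3.82 and 3.39 with H2O2, 6.62 and 6.56 in light, and 5.06 and 4.55 in dark. AT3G56060 had 4.13 and 3.38 with H2O2, 6.74 and 6.43 in light, and 4.76 and 5.02 in dark. AT4G28780 had 4.21 and 3.04 with H2O2, 6.65 and 6.80 in light, and 4.24 and 4.67 in dark. In these 3 both dark arrays lay under the dim bound, and in AT4G28780 the first H2O2 array was nearly level with the first dark array. AT1G14960 had 5.19 and 4.65 with H2O2, 7.96 and 7.33 in light, and 6.03 and 5.60 in dark. AT5G19240 had 6.18 and 5.89 with H2O2, 8.10 and 8.39 in light, and 6.99 and 6.80 in dark. Both had light more than 1 above dark and dark less than 1 above H2O2 in their means. AT5G48540 had 6.81 and 7.01 with H2O2, 8.58 and 8.39 in light, and 7.89 and 7.77 in dark, with all 3 groups apart.

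Several genes not called between light and dark were level in those groups on all 4 arrays. AT3G53370 had 5.57 and 5.54 with H2O2, 6.74 and 6.82 in light, and 6.72 and 6.69 in dark. AT2G47540 had 4.79 and 4.94 with H2O2, 6.51 and 6.23 in light, and 6.37 and 6.09 in dark. AT2G36430 had 6.42 and 6.46 with H2O2, 7.49 and 7.19 in light, and 7.29 and 7.28 in dark. Each had its H2O2 arrays close together and well below 4 arrays of similar signal. AT3G02910 was brighter, at 8.92 and 8.63 with H2O2, 9.93 and 9.81 in light, and 9.27 and 10.01 in dark, and AT4G17245 had 8.43 and 8.32, 8.94 and 9.53, and 9.28 and 9.11 in the same groups. In AT3G02910 the first dark array was nearer to H2O2 than the second was. AT3G24670 had dark above light on all arrays, at 5.24 and 5.31 with H2O2, 6.18 and 6.22 in light, and 6.51 and 6.51 in dark (light minus dark -0.31, adjusted p = 0.07056 by limma).

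**Figure D4:**
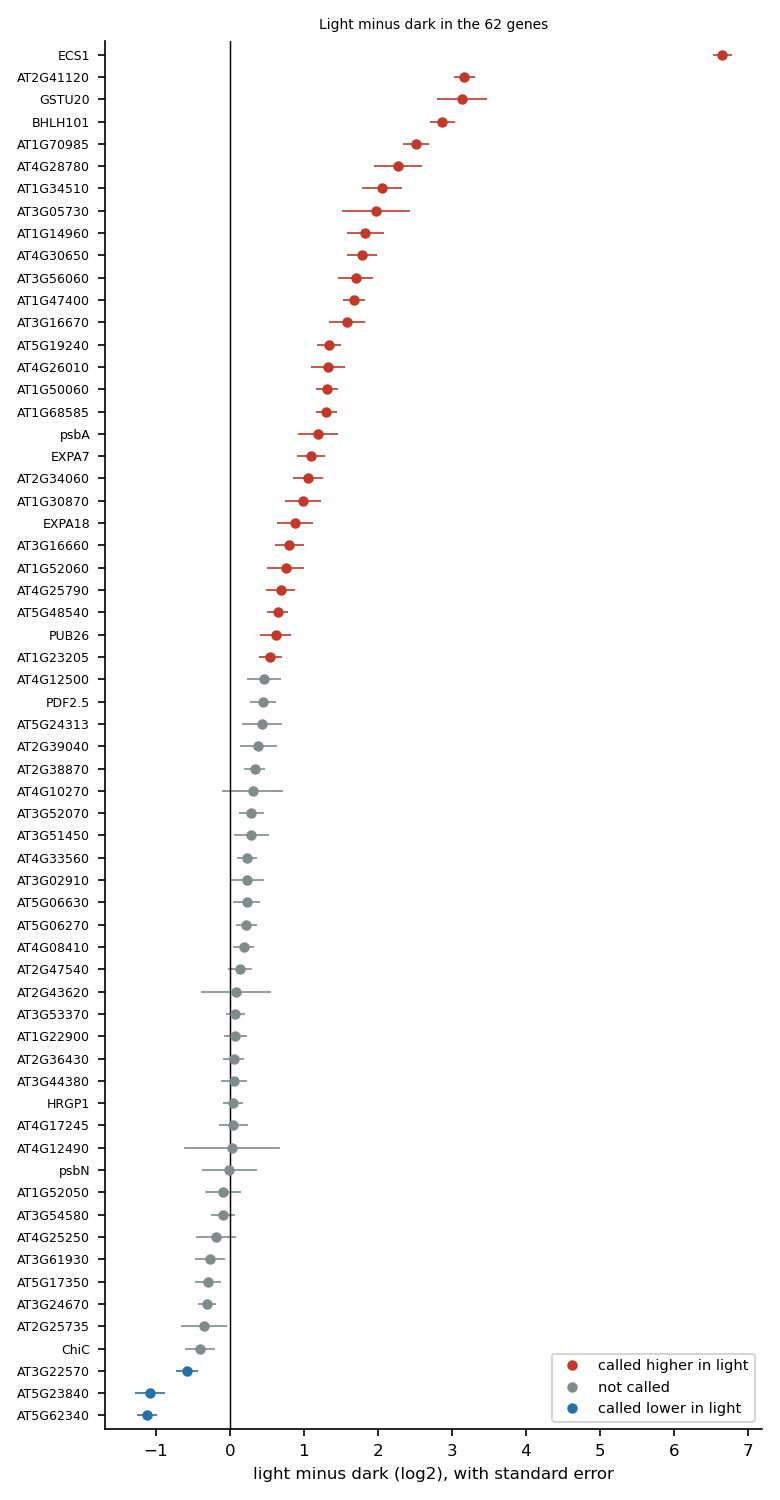
Light minus dark (log2) of the 62 genes in order of size, with their standard errors from limma and the called genes marked. Called genes in light range from 0.55 to 6.66 on the high side, and 3 genes lie between -1.12 and -0.58 on the low side.

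The 62 genes were nearer the dim end with H2O2 than in the other groups, as the rule required. With H2O2, 30 of them lay under the dim bound of 5.16, against 4 in light and 8 in dark. By its definition 40% of all tested probe sets have a mean over the 6 arrays under this bound. With H2O2 the 28 genes called higher in light had a median signal of 4.94, against 7.97 in light and 5.92 in dark, and for the 31 genes not called the medians were 5.24, 6.48 and 6.42. Without the dimmest 40% of probe sets 55 of the 62 were left. All 62 stand for their gene by 1 probe set, and none had a second single-gene probe set to set against it.

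Just inside the threshold of 0.8 were AT1G52060 with H2O2 minus dark of -0.801, AT1G22900 with -0.805 and AT2G41120 with -0.807. AT1G52060 had 7.38 and 6.72 with H2O2, 8.91 and 8.30 in light, and 7.97 and 7.73 in dark, and AT1G22900 had 5.03 and 5.12, 6.09 and 5.82, and 5.73 and 6.03 in the same groups. Just outside were AT1G72890 with -0.799 from dark and -1.04 from light, the thionin gene THI2.2 with -0.798 and -6.77, and AT5G05250 with -0.794 and -1.23. AT1G72890 had 5.88 and 5.95 with H2O2, 7.01 and 6.90 in light, and 6.67 and 6.76 in dark. THI2.2 had 4.06 and 3.90 with H2O2, 10.65 and 10.86 in light, and 4.70 and 4.87 in dark, and AT5G05250 had 7.12 and 7.07, 8.16 and 8.49, and 7.89 and 7.89 in the same groups. These 3 also had both H2O2 arrays below the other 4, and only the size of the difference from dark kept them out. One further gene, AT1G73600, passed both thresholds but overlapped, with 4.53 and 5.04 with H2O2, 9.01 and 9.22 in light, and 5.00 and 6.74 in dark. A threshold of -1 kept 32 genes, and one of -0.6 took 125.

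The number of genes that meet the rule depended on how the arrays were set against one another. The table is normalized so that array medians lie between 5.93 and 6.07, and replicate arrays correlated at 0.9948 with H2O2, 0.9927 in light and 0.9931 in dark over probe sets. The spiked hybridisation controls had medians of 9.08 and 8.96 on the H2O2 arrays, 8.68 and 9.54 on the light arrays, and 9.47 and 10.13 on the dark arrays. The replicates of light and of dark thus differed in these controls, so this setting also added spread within those groups. Its part in the calls lost on this scale was not tested. Setting each array by those controls instead raised every H2O2 minus dark difference by 0.78 and every H2O2 minus light difference by 0.089, and 9 of the 62 genes still met the rule. These 9 were AT3G16670, AT1G47400, AT3G05730, AT4G26010, HRGP1, AT5G06630, AT4G25250, AT5G23840 and AT5G62340. They include a root hair peroxidase, both leading extensins and 1 iron list gene. EXPA7, EXPA18, the root hair peroxidase AT1G30870, BHLH101, GSTU20 and ECS1 did not meet the rule on this scale. No H2O2 difference of the 62 genes turned above 0 (highest -0.022), but this was fixed in advance, since both shifts were smaller than the threshold of 0.8. On this scale none of the 62 was called lower in light than in dark, and 28 were higher. Leaving out 1 array at a time, 28 of the 62 met the rule each time. Without H2O2 replicate 2, 14 were lost, GSTU20 among them, and without dark replicate 2 also 14. AT5G23840, 1 of the 9 above, met the rule 4 of 6 times.

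Some of the genes lie next to one another. Of the 60 nuclear genes, 6 form 3 pairs of direct neighbours: AT3G16660 and AT3G16670, AT3G54580 and HRGP1, and AT1G52050 and AT1G52060. For AT3G16660 the arrays gave 6.37 and 5.75 with H2O2, 7.92 and 7.79 in light, and 6.96 and 7.14 in dark, the same order as AT3G16670 at smaller differences. AT1G52050 and AT1G52060 had H2O2 differences of -1.15 and -0.80 from dark. Of 60 measured neighbours that are not among the 62, limma called 13 (21.7%) lower than dark with H2O2, against 8.18% of all tested probe sets. Lower than light were 8 (13.3%), against 17.4%. The neighbours are named genes by their brightest probe set, whereas the tested probe sets include unnamed ones. These counts were not repeated with arrays set by the hybridisation controls, so nothing particular to the neighbours is read from them. The next gene to AT4G30650, AT4G30660, had 7.37 and 7.28 with H2O2, 8.88 and 8.95 in light, and 8.15 and 8.01 in dark, a difference from dark of -0.76 that missed the threshold. AT4G30660 was named after its values were seen.

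The 60 nuclear genes were short. Their gene span, from the annotation's first to last base, had a median of 1266 bp, against 2111 bp over the 13217 measured nuclear genes with a span. Of the 60, 53 lay below that median, 35 below the lower quartile of all genes (1407 bp), and 2 above the upper quartile (3049 bp). The median was 1548 bp in the 339 genes that met the H2O2 minus dark threshold, whatever their light signal, and 2082 bp in the 1302 genes that met the one against light, whatever their dark signal. The rule did not use span, and its part in the choice of these genes was not tested. By chromosome the 60 were spread as 16, 8, 14, 12 and 10 on chromosomes 1 to 5.

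**Figure D5:**
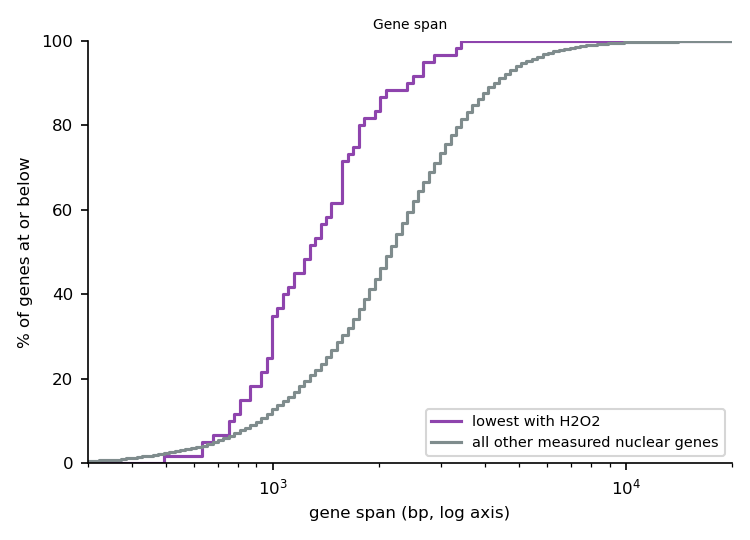
Share (%) of genes with a span at or below each length (bp, log axis), for the 60 nuclear genes lowest with H2O2 and for all other measured nuclear genes. The curve of the 60 genes lies to the left from 629 bp on, with a median of 1266 bp against 2111 bp over all measured nuclear genes. At 608 bp and shorter it lies below the other curve (at 608 bp 1.67% against 3.94%).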

How the data were processed

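Total RNA of 6 seedling samples was measured on 1-colour ATH1 arrays. The authors deposited log2 values for 22810 probe sets; RMA and limma are named per the submitters' processing notes, and no source used here gives their versions. The log2 scale is inferred from the range of 2.22 to 14.23. Groups and replicate numbers come from the titles. The 64 control probe sets were left out and 22746 tested. Of these 13513 name 1 gene, 503 several and 8730 none here; names were updated through the RefSeq table of TAIR10.1, which was used for names, spans and neighbours, and where a gene had several probe sets the brightest stood for it (13356 genes).

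Differences came from limma 3.58.1 in R 4.3.3 over all 6 arrays (3 residual and 5.84 prior degrees of freedom), 2-sided, with a call where the Benjamini-Hochberg adjusted p over all tested probe sets was under 0.05, and the fit was tested on simulated data. Arrays give no counts, so the number of arrays limits the precision. Members and the 12 gene lists by locus and 5 by name words were chosen with earlier results of these data known, so they are not independent evidence. The lists hold 296 loci, of which 105 were measured and 13 are among the 62 genes; 4 lists by locus and 3 by words had none. Values on every array are given for the 12 genes with the most negative smaller difference, up to 4 per list, up to 5 called in each direction in light against dark, and the 3 on either side of the threshold; up to 3 called list genes outside the 62 are named per list. Values of other genes were picked after they were seen.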

Additional observations from a re-analysis of the deposited data

How the results depend on the processing

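Alternatives were a replicate block, quantile normalization, removal of the dimmest 40%, the mean of a gene's probe sets, centring on hybridisation controls, other thresholds and leaving out single arrays. The 62 genes became 125 at a threshold of -0.6, 32 at -1 and 9 with control centring, 72 after quantile normalization, and 58 to 81 without single arrays. Genes called lower in light than in dark were 3, and 0 with control centring; the range without single arrays was 3 to 4. Genes called higher were 28, and 24 to 28 without single arrays. For the 92 measured genes of the 12 lists made by locus that are outside the 62, calls in H2O2 against dark were 26 lower and 6 higher. With control centring 2 were lower, and without single arrays 14 to 28 lower and 1 to 7 higher. Against light 19 were lower and 34 higher, with 12 and 22 after control centring. With control centring AT3G22570 turned to 0.11 in light minus dark, and XTH33 to 0.084 and AT1G05340 to 0.22 in H2O2 minus dark, none called. The changes of sign come from the shift of every difference by that centring, which also added spread within light and dark. The labels do not say whether same-numbered replicates were paired, and the main fit took no pairs. Over all probe sets, deviations of same-numbered arrays correlated at -0.032 (H2O2 and dark), -0.00186 (H2O2 and light) and 0.069 (light and dark). Such correlations cannot settle whether the samples were paired. With the replicate block, light minus dark called 29 of the 62 genes higher and 3 lower, and these list genes 27 lower and 8 higher in H2O2 against dark, 19 lower and 35 higher against light.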

Other observations

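The same rule on signal values was also met by 51 of 8730 probe sets unnamed here (0.584%) and by 5 of 503 that name several genes (0.994%), against 62 of 13513 that name 1 gene (0.459%). These probe sets are not described, since no gene can be named from them.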
